A study of Mus musculus with 7 samples.

Results

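Cytokine transcripts of CD8+ T cells were followed across 7 cultures that received small extracellular vesicles (sEV) for 48 hours. The genes described are 10 of the 55367 in the counts table, chosen by name: the cytokines Ifng, Tnf, Lta, Ltb, Csf2, Il3, Il17a, Il23a, and Il24, and Ifngas1, a long noncoding RNA encoded beside Ifng. They and the gene lists below were chosen with earlier results of these data known. All 10 passed the minimum of a mean of 5 counts per library that left 12623 genes for the test. The cells were CD8+ T cells sorted from spleens of the mouse strain Foxp3 YFP/cre, whose Foxp3 locus carries a YFP-Cre fusion in both groups, and no other allele is given for them. By the methods, mice were 8 to 10 weeks old unless stated otherwise. In 4 cultures the cells received HCME-sEV, purified from the spleens of healthy mice, and in 3 they received LME-sEV, purified from the leukemia microenvironment in the spleens of Eμ-TCL1 mice, in which the TCL1 oncogene is driven in B cells. These group sizes follow the sample labels, and a legend of the study gives them reversed. All cultures are labelled with 100 μg/mL of sEV, while the methods speak of the amount present in the respective spleens. According to the methods, CD8+ T cells were cultured on anti-CD3 with CD28 and IL2, so cytokine genes were read in activated cells.

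CD8 T cells act on target cells by cytotoxic granules and by cytokines that are transcribed within hours of T-cell receptor engagement. IFNγ, the product of Ifng, signals through JAK kinases to raise antigen presentation, while TNF and the lymphotoxins signal through receptors of the TNF receptor family to NF-κB. Csf2 (GM-CSF) and Il3 act on myeloid cells, Il17a is the signature cytokine of type 17 lymphocytes, and Il23a and Il24 encode a subunit of IL23 and a member of the IL10 family. Many of these mRNAs are short-lived because their 3′ untranslated regions (UTR) carry AU-rich elements, built of repeats of ATTTA, which RNA-binding proteins recognize.

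Libraries held between 3689831 and 5030522 UMI counts, and 3 counts, taken as the smallest level that could be shown, stood for between 0.582 and 0.807 CPM. CPM are counts relative to the library size after TMM scaling, and because reads were counted at 3′ ends, gene length does not enter a level. No replicate pair agreed within sampling noise (chi-square per degree of freedom of 2.19 to 6.66), and p-values measure only the spread between these libraries, for which no source used here states separate animals. The 6 markers of CD8 T cells summed to between 1407 and 1540 CPM with HCME-sEV and to between 1606 and 1861 CPM with LME-sEV, without overlap, and 2 of them (Cd3e and Cd3g) passed the test as higher. Cd4 and Foxp3 stayed at or under 3 counts in all libraries, whereas Zbtb7b, a CD4-lineage factor, was higher with LME-sEV, at 14.9 ± 0.985 CPM (SD, n = 3) against 8.20 ± 3.72 CPM (SD, n = 4). Of 8 basophil and mast cell markers, 7 were tested and 3 were higher, with a list sum of 15.9 to 43.3 CPM against 41.3 to 59.3 CPM. Of 8 erythroid and platelet markers, 7 were tested and 3 were higher, with 72.0 to 176 CPM against 152 to 199 CPM. The B-cell list summed to between 231 and 274 CPM with HCME-sEV and between 311 and 335 CPM with LME-sEV, most of it Ighm, while Cd79a and Cd22 were at or under the floor. The sums of NK-cell and myeloid markers overlapped between groups, at 21.9 to 35.7 against 24.8 to 35.7 CPM and at 640 to 823 against 721 to 810 CPM. Most of the NK-cell sum was Klre1 and most of the myeloid sum was Ly6c2. The overlap of these sums therefore says little about the scarcer markers, of which Itgam is given with Il23a below. The part of these shifts in the cytokine results was not tested, and in bulk libraries fewer cells of a type and less RNA per cell cannot be told apart.

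Across the 10 genes, 4 were lower with LME-sEV (Ifng, Tnf, Lta, and Il24), 2 were higher (Ifngas1 and Il23a), and 4 did not pass the test, at a false discovery rate (FDR) under 0.05 by edgeR's quasi-likelihood test adjusted over all 12623 genes. For comparison, 5.21% of all tested genes were lower and 3.75% were higher by the same rule. Because the genes and lists were chosen with earlier results known, these shares are a description, here and for the lists below, and not a test. Lta and Il24 were also differentially expressed genes (DEG, with a log2 fold change beyond 1 in addition) in the lower direction, against 0.658% of all tested genes, and Ifngas1 was a DEG in the higher direction, against 0.626%. Without overlap between groups, 5 genes were lower (Tnf, Lta, Csf2, Il17a, and Il24) and 1 was higher (Ifngas1), where 10.8% and 9.49% of all tested genes were so. Il24, with 1, 0, and 2 counts in the LME-sEV libraries, met the minimum only through the HCME-sEV libraries. The same holds for Il17a, with 4, 5, and 5 counts in the LME-sEV libraries. Inclusion of Il24 and Il17a in these counts and in the median below therefore depends on the group where they are high. With a minimum of 5 counts in every library, 1 of the 10 was a lower DEG. The median log2 fold change of the 10 genes was −0.46, and that of all tested genes was 0.01.

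**Figure D1:**
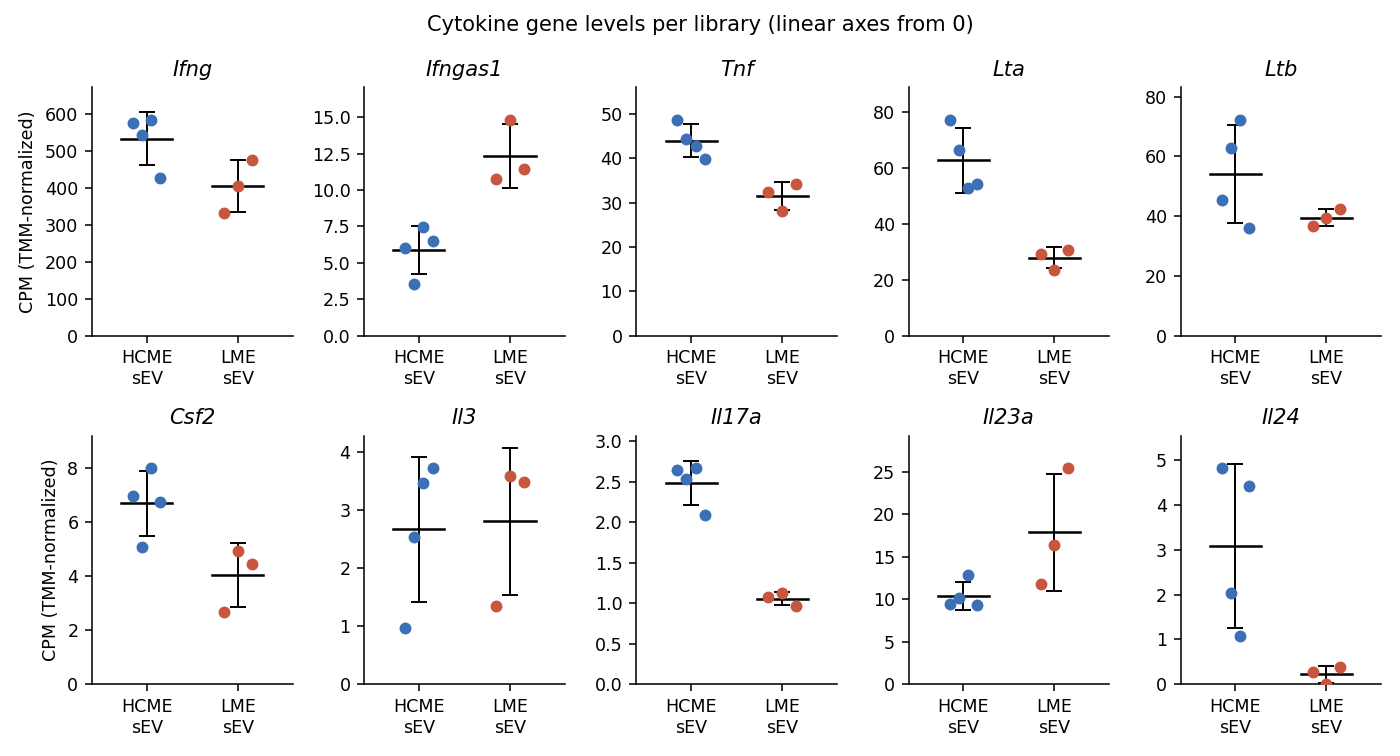
TMM-normalized CPM of each of the 10 genes (linear vertical axes from 0, 1 panel per gene) in the 4 HCME-sEV libraries (blue) and the 3 LME-sEV libraries (red). Horizontal lines are means and bars are SD. Lta and Ifngas1 separate the groups in opposite directions, Il3 does not separate them, and Il24 lies near 0 in the 3 LME-sEV libraries.

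Ifng was by far the most abundant of these transcripts, with between 72.4% and 75.6% of the summed CPM of the 10 genes in every library. By mean CPM it ranked 238 among the 12623 tested genes with HCME-sEV and 336 with LME-sEV. The summed level lay between 591 and 787 CPM with HCME-sEV and between 460 and 628 CPM with LME-sEV, so the sums overlapped. With HCME-sEV, Ifng was followed by Lta (62.8 CPM), Ltb (54.2 CPM), and Tnf (43.9 CPM), whose ranges over libraries overlapped from neighbor to neighbor. Il23a and Csf2 came next, at 10.4 and 6.70 CPM, and their ranges did not overlap. The last 4, Ifngas1, Il24, Il3, and Il17a, lay between 2.49 and 5.89 CPM, each overlapping its neighbor. With LME-sEV the order was Ifng, Ltb, Tnf, Lta, Il23a, Ifngas1, Csf2, Il3, Il17a, and Il24, so that Lta moved from place 2 to place 4. In that group the range of Ifng lay above that of Ltb, that of Ltb above that of Tnf, and those of Tnf, Lta, and Il23a overlapped from neighbor to neighbor. The range of Ifngas1 lay above that of Csf2, and those of Il3, Il17a, and Il24 followed, with overlap of Csf2 and Il3 and a gap before Il17a and before Il24.

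Ifng encodes IFNγ, the main antiviral and antitumor cytokine of CD8 T cells. On mouse genome GRCm38 it lies at chr10:118441046-118445892 on the plus strand, and shares exon bases with Gm49751, an annotated transcript on the same strand to which 0 to 4 counts were given per library. HCME-sEV libraries 1 to 4 held 574, 543, 584, and 428 CPM of Ifng. LME-sEV libraries 1 to 3 held 333, 405, and 475 CPM. The groups overlapped, because HCME-sEV library 4 lay below LME-sEV library 3. The mean with LME-sEV was 76.0% of that with HCME-sEV, at 404 ± 71.0 CPM (SD, n = 3) against 532 ± 71.9 CPM (SD, n = 4). The log2 fold change was −0.39 (SE 0.11, FDR = 0.0288 by edgeR's quasi-likelihood test), and the exact permutation test of the CPM means gave p = 0.0857. The call was lost when the fit left out HCME-sEV library 2 (FDR = 0.0765, edgeR), HCME-sEV library 3 (FDR = 0.0526), LME-sEV library 1 (FDR = 0.177), or LME-sEV library 2 (FDR = 0.118), and when libraries were scaled by their totals only (FDR = 0.0528).

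Ifngas1 (also called NeST or Tmevpg1) is a long noncoding RNA that has been described as a promoter of Ifng transcription. It lies at chr10:118502035-118556525 on the minus strand, 56.1 kb beyond the end of Ifng and with no shared exon. HCME-sEV libraries 1 to 4 held 6.02, 3.55, 7.47, and 6.52 CPM, and LME-sEV libraries 1 to 3 held 10.8, 14.8, and 11.4 CPM. Every LME-sEV library lay above every HCME-sEV library. The mean of 12.3 ± 2.18 CPM with LME-sEV (SD, n = 3) exceeded that of 5.89 ± 1.67 CPM with HCME-sEV (SD, n = 4), with a log2 fold change of 1.07 (SE 0.23, FDR = 0.00587, edgeR) and an exact permutation p of 0.0286, the smallest that 4 against 3 libraries allow. Without LME-sEV library 2 the log2 fold change was 0.92 and the FDR 0.0617 (edgeR). The ratio of both was examined after their opposite directions were seen. Per 100 counts of Ifng there were 1.05, 0.653, 1.28, and 1.52 counts of Ifngas1 in the HCME-sEV libraries and 3.23, 3.66, and 2.41 in the LME-sEV libraries. The groups did not overlap (1.13 ± 0.370, SD, n = 4, against 3.10 ± 0.636, SD, n = 3; exact permutation p = 0.0286, and 0.0714 after adjustment over the 5 ratios examined).

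The promoters of this pair are shown because the 2 transcripts moved apart. Each window holds 250 bases before and 50 after the annotated start (RefSeq, GRCm38.p6), 5′ to 3′ on the strand of the gene, with capitals for matches of the NFAT core GGAAA on either strand (TTTCC on the opposite one). Ifng, chr10:118440796-118441095, plus strand, has 1 match, and Ifngas1, chr10:118556476-118556775, minus strand, has 0.
Ifng: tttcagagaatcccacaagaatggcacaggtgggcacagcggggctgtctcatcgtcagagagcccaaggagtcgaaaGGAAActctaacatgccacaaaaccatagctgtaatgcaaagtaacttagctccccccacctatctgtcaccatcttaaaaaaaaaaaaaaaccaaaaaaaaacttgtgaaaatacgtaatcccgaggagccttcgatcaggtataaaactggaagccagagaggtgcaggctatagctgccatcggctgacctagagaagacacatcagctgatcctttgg
Ifngas1: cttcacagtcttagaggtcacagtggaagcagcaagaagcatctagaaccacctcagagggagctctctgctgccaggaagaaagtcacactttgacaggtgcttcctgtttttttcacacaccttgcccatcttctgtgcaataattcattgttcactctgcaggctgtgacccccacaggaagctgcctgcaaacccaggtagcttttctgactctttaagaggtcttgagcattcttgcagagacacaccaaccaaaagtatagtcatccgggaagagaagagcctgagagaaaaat
The NFAT core is held by 61.3% of the 32851 promoter windows of this length, so a match is common. Neither window held AP-1 (TGANTCA, 7.81% of windows), the T-box core (GGTGTGA, 3.98%), or the NF-κB motif (8.46%), all searched on both strands.

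Tnf, Lta, and Ltb form a cluster of 10.9 kb within the major histocompatibility complex on chromosome 17. Lta is soluble lymphotoxin α, which shares the receptors of TNF and pairs with the membrane protein lymphotoxin β, the product of Ltb, to form a ligand of the lymphotoxin β receptor. Of the 10 genes, Lta had the lowest FDR. It lies at chr17:35203165-35205351 on the minus strand, and HCME-sEV libraries 1 to 4 held 77.3, 66.7, 52.8, and 54.2 CPM. LME-sEV libraries 1 to 3 held 29.3, 23.6, and 30.6 CPM, all far below the lowest HCME-sEV library. The mean with LME-sEV, 27.8 ± 3.74 CPM (SD, n = 3), was 44.4% of that with HCME-sEV, 62.8 ± 11.5 CPM (SD, n = 4). The log2 fold change was −1.17 (SE 0.14, FDR = 5.67e-05, edgeR), the exact permutation p was 0.0286, and the call held in each of the 18 alternatives run.

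Tnf, encoding the proinflammatory cytokine TNF, lies at chr17:35199381-35202007 on the minus strand, 1.16 kb after the end of Lta. It held 48.7, 44.4, 42.7, and 39.8 CPM with HCME-sEV and 32.3, 28.1, and 34.1 CPM with LME-sEV. The groups did not overlap, and the highest LME-sEV library lay closer to the HCME-sEV libraries than for Lta. The mean was 43.9 ± 3.7 CPM (SD, n = 4) against 31.5 ± 3.09 CPM (SD, n = 3), with a log2 fold change of −0.48 (SE 0.11, FDR = 0.0126, edgeR; exact permutation p = 0.0286). Without LME-sEV library 2 the FDR was 0.0946 (edgeR).

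Ltb, at chr17:35194439-35196320 on the plus strand and 3.06 kb from Tnf, is transcribed toward it. It held 45.5, 62.9, 72.3, and 36.1 CPM with HCME-sEV and 36.9, 39.3, and 42.5 CPM with LME-sEV. The HCME-sEV libraries were widely spread and the LME-sEV libraries lay within their range. The log2 fold change was −0.44 (95% interval −0.79 to −0.09, FDR = 0.108, edgeR), a size like that of Tnf with a wider error. It passed without HCME-sEV library 1 (FDR = 0.0488, edgeR) or HCME-sEV library 4 (FDR = 0.0176).

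Ratios of counts within a library are free of its scaling. The pairs were chosen after the values of the genes were seen. The ratio of Lta to Tnf was 1.59, 1.5, 1.24, and 1.36 with HCME-sEV and 0.908, 0.840, and 0.898 with LME-sEV. Lta thus exceeded Tnf in every HCME-sEV library and fell below it in every LME-sEV library, on the scale of counts (1.42 ± 0.155, SD, n = 4, against 0.882 ± 0.0368, SD, n = 3; exact permutation p = 0.0286, adjusted 0.0714 over the 5 ratios). For Ltb to Tnf the ratio was 1.24 ± 0.384 (SD, n = 4) against 1.26 ± 0.130 (SD, n = 3; exact permutation p = 0.83). For Lta to Ltb it was 1.25 ± 0.436 (SD, n = 4) against 0.706 ± 0.0988 (SD, n = 3; exact permutation p = 0.0857).

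The promoters of Tnf and Lta are shown because both genes fell. The windows have the same layout as above, with the NFAT core in capitals. Tnf, chr17:35201958-35202257, and Lta, chr17:35205302-35205601, are both on the minus strand, and each window holds 3 matches.
Tnf: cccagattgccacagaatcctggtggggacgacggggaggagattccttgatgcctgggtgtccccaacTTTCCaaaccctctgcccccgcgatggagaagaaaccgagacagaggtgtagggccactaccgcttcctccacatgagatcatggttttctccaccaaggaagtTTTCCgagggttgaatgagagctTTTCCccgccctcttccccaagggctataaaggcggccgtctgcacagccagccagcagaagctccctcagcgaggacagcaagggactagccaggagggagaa
Lta: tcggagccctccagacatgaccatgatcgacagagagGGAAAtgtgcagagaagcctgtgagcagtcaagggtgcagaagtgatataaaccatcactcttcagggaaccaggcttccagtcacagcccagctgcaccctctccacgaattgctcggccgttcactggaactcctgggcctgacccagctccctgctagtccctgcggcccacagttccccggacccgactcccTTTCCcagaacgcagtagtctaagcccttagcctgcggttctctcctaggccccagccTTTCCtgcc
The window of Ltb held 1 NFAT core, which is part of a match to the NF-κB motif, the only NF-κB match among the 8 genes with a promoter entry. Il23a and Il24 had no entry. Of the 8, 6 held the NFAT core (all but Ifngas1 and Il17a), 1 held AP-1 (Il17a), and 0 held the T-box core. These matches describe letters in the window and not binding.

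**Figure D2:**
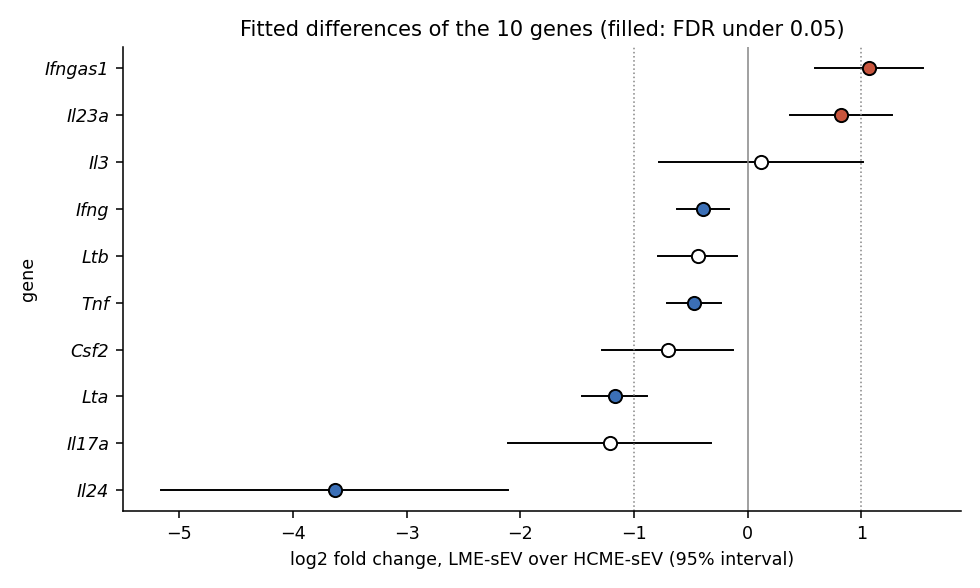
Log2 fold change of LME-sEV over HCME-sEV (horizontal axis) for each of the 10 genes (vertical axis), with 95% intervals from edgeR's quasi-likelihood fit. Filled points passed FDR 0.05, blue for lower and red for higher, and dotted lines mark a log2 fold change of −1 and 1. Il24 lies at −3.64, Lta at −1.17, and Ifngas1 at 1.07, while the interval of Il3 spans 0.

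Csf2 and Il3 encode the growth factors GM-CSF and IL3, and lie 15.6 kb apart on the minus strand of chromosome 11, at chr11:54247271-54249667 and chr11:54265303-54267277. Csf2 shares exon bases with Gm12223 on the opposite strand, which had 1 count in all 7 libraries together, and whether counting used the strand is not given in the sources used here. Csf2 held 6.99, 5.07, 8.0, and 6.75 CPM with HCME-sEV and 2.69, 4.94, and 4.46 CPM with LME-sEV. The groups did not overlap, but by a narrow margin between HCME-sEV library 2 and LME-sEV library 2. The log2 fold change was −0.70 (95% interval −1.28 to −0.13, FDR = 0.125, edgeR; exact permutation p = 0.0571), so the call was not made, here or in any of the 18 alternatives. Il3 had few counts, 4, 10, 13, and 16 with HCME-sEV and 5, 16, and 18 with LME-sEV. Its log2 fold change was 0.11, with a 95% interval of −0.78 to 1.01 (FDR = 0.915, edgeR), an interval wide enough to hold a change past a log2 value of 0.7 in either direction. Its sign turned when HCME-sEV library 1, LME-sEV library 2, or LME-sEV library 3 was left out.

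Il17a encodes IL17A, which CD8 T cells make when they take the type 17 fate. It lies at chr1:20730905-20734496 on the plus strand. Counts were 11, 10, 10, and 9 in the HCME-sEV libraries and 4, 5, and 5 in the LME-sEV libraries. The groups did not overlap, at 2.49 ± 0.268 CPM (SD, n = 4) against 1.06 ± 0.0790 CPM (SD, n = 3), but these levels are close to the floor. Summed over libraries, 40 counts stood against 14, which gives a ratio of LME-sEV to HCME-sEV of 0.424 with an exact 95% counting interval of 0.213 to 0.796. The log2 fold change was −1.22 (SE 0.43) with FDR = 0.0853 by edgeR, under which the call was not made, and the exact permutation p was 0.0286. Markers of γδ and other IL17-producing lymphocytes summed to between 16.5 and 23.3 CPM with HCME-sEV and between 14.3 and 18.4 CPM with LME-sEV. These sums hold the 8 of 11 markers that could be looked up, of which Il23r, Sox13, Blk, and 5830411N06Rik were at or under 3 counts in all libraries. Of these markers 2 were tested, and they went in opposite directions without passing. Trdc, a constant segment of the γδ receptor, held 15.4 ± 1.82 CPM (SD, n = 4) against 12.2 ± 2.22 CPM with LME-sEV (SD, n = 3; FDR = 0.284, edgeR). Ccr6 held 1.71 ± 0.633 CPM (SD, n = 4) against 2.62 ± 0.716 CPM with LME-sEV (SD, n = 3; FDR = 0.431, edgeR). The part of such cells in the level of Il17a was not tested.

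Il23a encodes the specific subunit of IL23, a cytokine better known from myeloid cells, and lies at chr10:128296139-128298752 on the minus strand. It held 9.40, 10.1, 12.8, and 9.31 CPM with HCME-sEV and 11.8, 16.4, and 25.4 CPM with LME-sEV. LME-sEV library 3 was the highest, and LME-sEV library 1 lay below HCME-sEV library 3, so the groups overlapped. The mean was 17.9 ± 6.90 CPM (SD, n = 3) against 10.4 ± 1.64 CPM (SD, n = 4), with a log2 fold change of 0.82 (SE 0.21, FDR = 0.0209, edgeR; exact permutation p = 0.0571). Without LME-sEV library 3 the log2 fold change was 0.46 and the FDR 0.263 (edgeR). The call was also lost without HCME-sEV library 2 (FDR = 0.0534), HCME-sEV library 4 (FDR = 0.0653), or LME-sEV library 2 (FDR = 0.057). Of the 9 myeloid markers, 2 were tested and neither passed: Cst3, at 114 ± 20.5 CPM (SD, n = 4) against 139 ± 22.9 CPM with LME-sEV (SD, n = 3; FDR = 0.136, edgeR), and Ly6c2 (590 against 633 CPM, FDR = 0.525). Cd14 and Adgre1 were at or under the floor in all libraries. Itgam, below the test's minimum, had 0, 0, 0, and 1 counts with HCME-sEV and 6, 8, and 6 with LME-sEV, without overlap and in the direction of Il23a. The part of myeloid cells in the level of Il23a was not tested.

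Il24 encodes an IL10-family cytokine and lies at chr1:130882074-130887454 on the minus strand. Counts were 20, 8, 4, and 19 in the HCME-sEV libraries and 1, 0, and 2 in the LME-sEV libraries. No LME-sEV library exceeded the floor of 3 counts, and HCME-sEV library 3 was just above it. The HCME-sEV libraries summed to 51 counts and the LME-sEV libraries to 3, a ratio of HCME-sEV to LME-sEV of 14.0 with an exact 95% counting interval of 4.54 to 70.3 after correction for library size. The fitted log2 fold change of −3.64 (SE 0.73, FDR = 0.00399, edgeR) depends on the prior given to low counts. HCME-sEV libraries 1 and 4 held far more than libraries 2 and 3, and the exact permutation p was 0.0571. Il24 passed wherever it was tested, in 15 alternatives, and had no adjusted p under the minimum of 5 counts in every library, under edgeR's filterByExpr, or in DESeq2. Where the minimum was a mean of 5 counts, Il24 entered the test only through the group where it is high. Passing there is therefore not separate support.

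**Figure D3:**
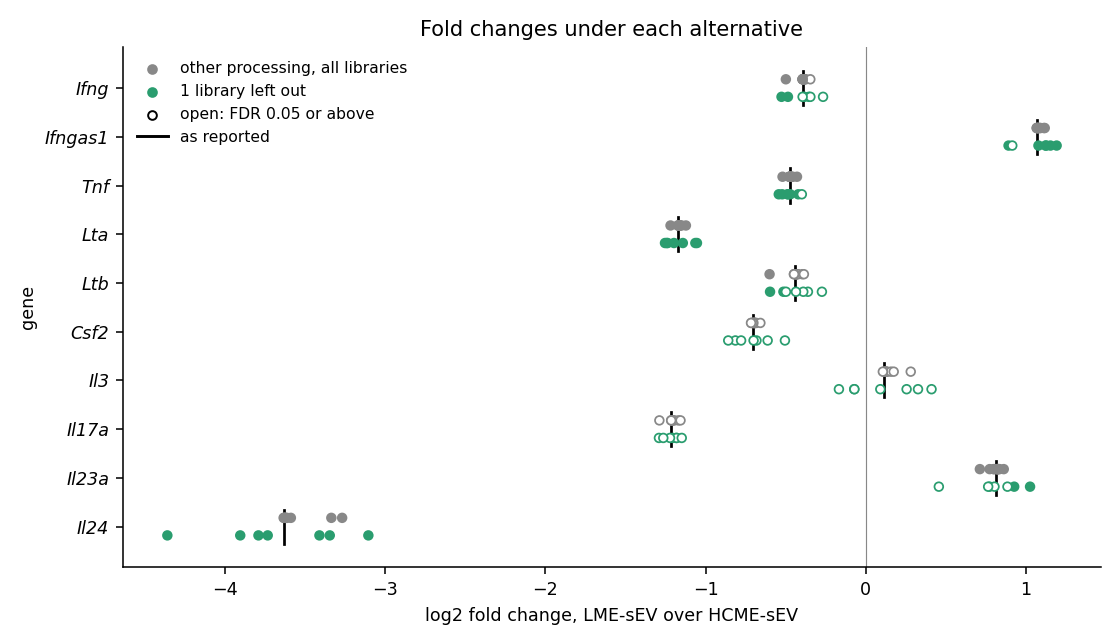
Log2 fold change of LME-sEV over HCME-sEV (horizontal axis) of each gene (vertical axis) under other processing with all libraries (gray) and with 1 library left out (green). Filled points had an FDR under 0.05, and black lines mark the reported values. All points of Lta are filled and lie between −1.25 and −1.05, those of Ifng are partly open, and those of Il3 lie on both sides of 0.

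Receptors of these cytokines were next listed, to see which of the signals the CD8 T cells could themselves read. Of 17 receptor genes, 11 were tested, 1 was higher and 1 was lower, beside 3.75% and 5.21% of all tested genes. Ifngr1, the ligand-binding chain of the IFNγ receptor, was higher with LME-sEV, at 393 ± 21.3 CPM (SD, n = 3) against 314 ± 41.5 CPM (SD, n = 4), a log2 fold change of 0.32 (SE 0.09, FDR = 0.0274, edgeR), while the groups overlapped. Il12rb1, a chain that IL12 and IL23 receptors share, was lower, at 31.1 ± 7.76 CPM (SD, n = 3) against 46.9 ± 1.91 CPM (SD, n = 4), a log2 fold change of −0.57 (SE 0.13, FDR = 0.0102, edgeR). Both calls were lost without LME-sEV library 2, that of Ifngr1 also without HCME-sEV library 2, HCME-sEV library 4, or LME-sEV library 3, and that of Il12rb1 also without LME-sEV library 1. Il23r, the other chain of the IL23 receptor, was at 0 in the HCME-sEV libraries and under the floor in the LME-sEV libraries, and Ltbr was likewise below the test's minimum. The TNF receptors Tnfrsf1a (28 against 28.9 CPM with LME-sEV, FDR = 0.854) and Tnfrsf1b (50.4 against 55.5 CPM, FDR = 0.570) did not pass the edgeR test.

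Among 33 tested transcription factors that act on cytokine genes, 3 were lower and 5 were higher, beside 5.21% and 3.75% of all tested genes. Tbx21, which encodes T-bet and drives Ifng in effector cells, fell to 76.3 ± 5.20 CPM (SD, n = 3) from 101 ± 9.78 CPM (SD, n = 4), a log2 fold change of −0.41 (SE 0.09, FDR = 0.0101, edgeR). Irf4 (log2 fold change −0.42, FDR = 0.00398) and Egr1 (−0.38, FDR = 0.0460), both induced by T-cell receptor signals, fell as well. Those that rose with the largest differences were Rora, a factor of type 17 cells (log2 fold change 1.01, FDR = 1.58e-04), Prdm1, encoding Blimp-1 of terminal effector cells (0.92, FDR = 0.00340), Stat3, which transmits IL6 and IL23 signals (0.49, FDR = 6.41e-04), and Ets1 (0.41, FDR = 0.0212), all by edgeR. Eomes, the other T-box factor of CD8 T cells, held 189 CPM with HCME-sEV and 168 CPM with LME-sEV (FDR = 0.189). The NFAT genes Nfatc1, Nfatc2, and Nfatc3 had log2 fold changes of −0.0031, 0.22, and 0.10 and did not pass. With LME-sEV library 2 left out, 1 factor was lower and 3 were higher, and 3 were higher also without HCME-sEV library 2 or LME-sEV library 3. With HCME-sEV library 2, HCME-sEV library 4, LME-sEV library 1, or LME-sEV library 3 left out, 2 were lower.

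Targets of IFNγ were counted because IFNγ also acts on the cells that secrete it. Of 26 tested targets 7 were lower and 0 were higher, where 5.21% and 3.75% of all tested genes were so, and the list's median log2 fold change was −0.18. At an unadjusted p under 0.05 of the same edgeR test, 10 were lower and 0 higher, and by DESeq2 7 were lower and 0 higher. The largest falls were those of Cxcl10, a chemokine (log2 fold change −0.99, SE 0.24, FDR = 0.0127), Socs1, a feedback inhibitor of JAK kinases (−0.62, SE 0.13, FDR = 0.00529), and the guanylate-binding proteins Gbp5 (−0.62, SE 0.13, FDR = 0.00615) and Gbp2 (−0.55, SE 0.08, FDR = 2.39e-04), all by edgeR. Gbp2 held 217 ± 12 CPM (SD, n = 4) with HCME-sEV and 148 ± 2.43 CPM (SD, n = 3) with LME-sEV, without overlap. The other 3 that fell were Gbp4, Irgm1, and Iigp1. Irf1, a transcription factor of the same response, had a log2 fold change of −0.04 and did not pass, nor did the antigen-processing genes Tap1, Psmb8, and Psmb9. Of the 26, 4 were lower when LME-sEV library 2 or LME-sEV library 3 was left out.

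Of 19 tested NF-κB targets downstream of TNF receptors, 2 were lower, 1 was higher, and 16 were not called, beside 5.21% and 3.75% of all tested genes. At an unadjusted p under 0.05 of the edgeR test, 5 were lower and 1 was higher. Icam1, an adhesion molecule, fell (log2 fold change −0.49, FDR = 0.0276), and so did Nfkbib, an inhibitor of NF-κB (−0.30, FDR = 0.0378), while Traf1, a TNF receptor adaptor, rose (0.29, FDR = 0.0211). These 3 calls were lost with LME-sEV library 2 or LME-sEV library 3 left out, and that of Traf1 also without HCME-sEV library 2. Without HCME-sEV library 2, HCME-sEV library 4, or LME-sEV library 1, 1 of the list was lower, as it was with all libraries under DESeq2, upper-quartile scaling, scaling by library totals only, and both of the weaker minimums on counts.

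Other cytokines and TNF-family ligands gave 6 lower and 2 higher of 21 tested (5.21% and 3.75% of all tested genes), with a median log2 fold change of −0.30. Il2, the autocrine T-cell growth factor, fell to 1.4 ± 0.862 CPM (SD, n = 3) from 5.72 ± 0.896 CPM (SD, n = 4), with a log2 fold change of −1.98 (SE 0.39, FDR = 0.00302, edgeR). Lif, of the IL6 family, fell from 11.8 ± 3.46 to 3.03 ± 0.415 CPM (SD, n = 4 and n = 3), with a log2 fold change of −1.95 (SE 0.27, FDR = 2.31e-04, edgeR), and its relative Osm fell by 0.68 on the log2 scale (FDR = 0.00708). Fasl, a death ligand of the TNF family, fell by 0.54 (FDR = 0.0119), and Tnfsf8 and Ccl4 were also lower. Ebi3, a subunit of IL27 and IL35, rose (log2 fold change 0.93, SE 0.16, FDR = 0.00135, edgeR), and so did the chemokine Ccl5 (0.66, SE 0.13, FDR = 0.00341). Without LME-sEV library 2, 3 of this list were lower.

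**Figure D4:**
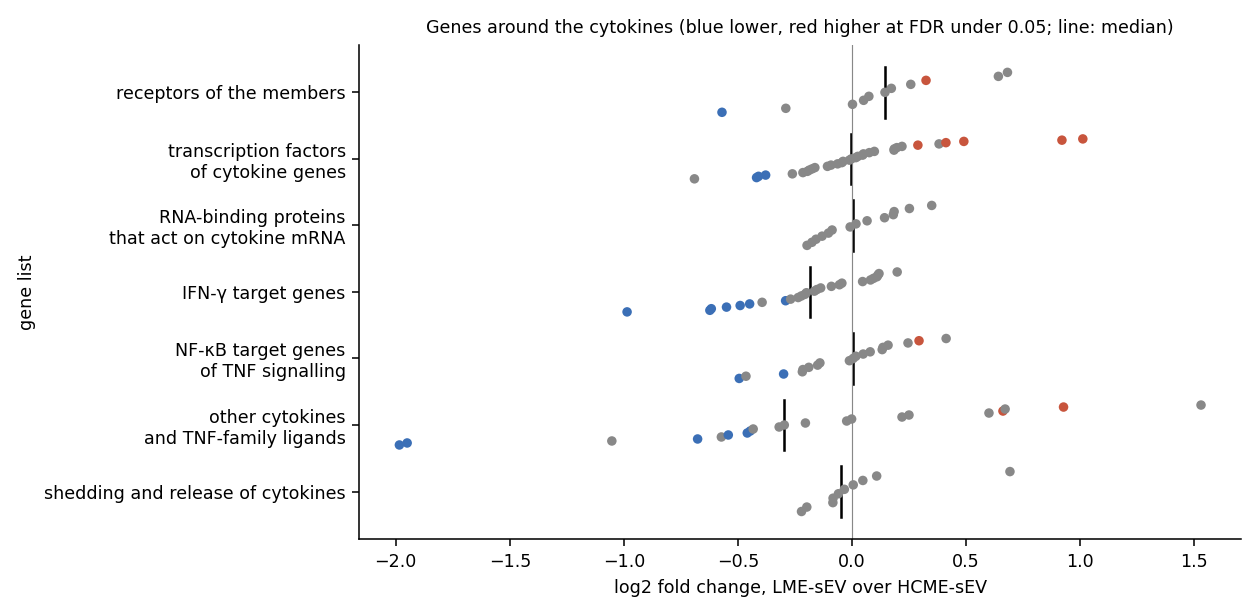
Log2 fold change of LME-sEV over HCME-sEV (horizontal axis) of every tested gene in the 7 lists around the cytokines (vertical axis). Blue points were lower and red points higher at FDR under 0.05, gray points did not pass, and black lines are list medians. The IFNγ targets have 7 blue and 0 red points, and the RNA-binding proteins have neither.

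Steps after transcription were represented by 2 lists. Of 14 tested RNA-binding proteins that act on cytokine mRNA, 0 were lower and 0 were higher by edgeR, DESeq2, or limma-voom, and 0 under each of the 18 alternatives. At an unadjusted p under 0.05, 1 was lower and 1 was higher. The decay factors of AU-rich mRNA Zfp36, Zfp36l1, and Zfp36l2 had log2 fold changes of 0.07, −0.01, and 0.02. Among genes for the shedding and release of cytokines, 10 were tested with 0 lower and 0 higher by edgeR and by DESeq2, and at an unadjusted p under 0.05 there were 0 and 1. In this list 1 gene was higher with a minimum of 1 count in total, with the replicate number as a block, and without HCME-sEV library 3. Adam17, the protease that releases TNF from the membrane, held 96.5 CPM with HCME-sEV and 96.8 CPM with LME-sEV (log2 fold change 0.0049, FDR = 0.985, edgeR).

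At least 1 copy of ATTTA was found in the 3′ UTR of every coding member but Ltb, and in members that moved in either direction. The densest 30 bases of the annotated 3′ UTR (GENCODE vM21, GRCm38) are shown for 4 of them, 5′ to 3′ on the strand of the gene, with each ATTTA in capitals. The windows lie at chr10:118445330-118445359 (Ifng, plus strand), chr17:35199679-35199708 (Tnf, minus), chr17:35203408-35203437 (Lta, minus), and chr11:54247329-54247358 (Csf2, minus).
Ifng: aacctATTTAttaatATTTAaaactATTTA
Tnf: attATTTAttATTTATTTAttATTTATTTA
Lta: tATTTAtggagagaaaagttaagttATTTA
Csf2: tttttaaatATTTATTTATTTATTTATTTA
Csf2 had 9 copies of ATTTA in 317 bases, Tnf 8 in 764 bases, Ifng 6 in 631 bases, and Lta 3 in 572 bases. Il17a had 7 copies, Il23a 6, Il24 4, Il3 1 in a UTR of only 101 bases, and Ltb 0. By copies per kb, all but Lta and Ltb stood above at least as large a share as Il23a, which stood above 98.6% of the 20657 genes with a 3′ UTR of 50 bases or more, and Lta stood above 93.2%. At least 1 copy is held by 66.2% of those genes. The longer element TTATTTATT was found in Tnf (5 copies), Csf2 (4), Lta (1), and Il23a (1), which include genes that were lower, higher, and not called, and in 7.79% of all genes. Of the 928 tested genes with it, 3.77% were lower and 4.10% were higher, and their median log2 fold change was 0.02.

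Genes around the members were read to see how far the changes extended along the chromosome. Within 100 kb of any member, 25 other genes were tested, of which 2 were lower and 0 higher by edgeR, beside 5.21% and 3.75% of all tested genes. At an unadjusted p under 0.05, 5 were lower and 1 was higher. The tested gene nearest to Ltb on the far side from Tnf, Lst1, had a log2 fold change of 0.27 (FDR = 0.599), and the one nearest to Lta on its other side, Nfkbil1, had −0.09 (FDR = 0.815). Between these neighbors Tnf and Lta passed the test as lower. Ltb, which also lies there, did not pass, but its log2 fold change of −0.44 was close to the −0.48 of Tnf. Of the 2 other genes that were lower, the one at this locus was Gm23442, a small nucleolar RNA gene 31.7 kb from Ltb (11.8 CPM with HCME-sEV against 4.14 CPM with LME-sEV, log2 fold change −1.56, SE 0.25, FDR = 7.08e-04, edgeR), a class of RNA that generally has no poly(A) tail. It lies within the span of Prrc2a on the same strand, and Prrc2a did not pass (log2 fold change −0.23, FDR = 0.224, edgeR). The second lower gene was Fcmr, the IgM Fc receptor, 1.28 kb from Il24, which fell from 6.89 to 2.56 CPM (log2 fold change −1.49, SE 0.35, FDR = 0.0119, edgeR). Around Il23a, Stat2 and Pan2 lay on either side and did not pass (log2 fold changes 0.05 and 0.12), and Acsl6, beyond Il3, did not either (0.14). Mcm3, the tested gene nearest to Il17a, had −0.19 (FDR = 0.135).

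**Figure D5:**
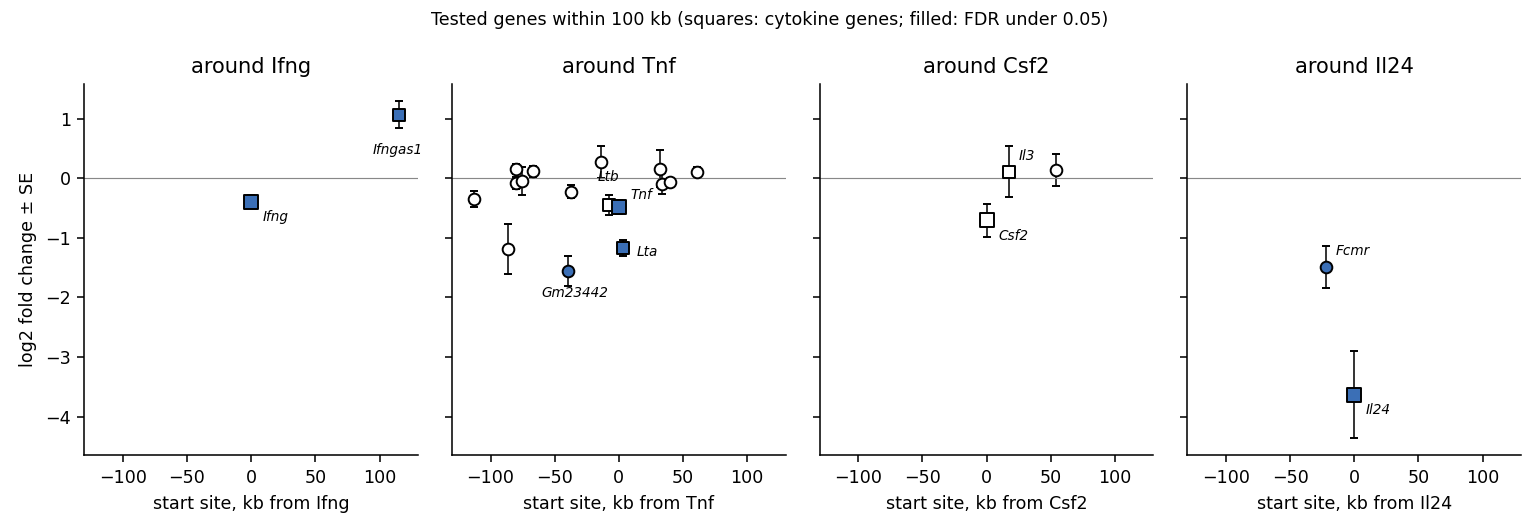
Log2 fold change ± SE of LME-sEV over HCME-sEV (vertical axis) of tested genes within 100 kb of Ifng, Tnf, Csf2, and Il24, by the distance of their start site in kb (horizontal axis). Squares are cytokine genes and Ifngas1, circles are other genes, and filled symbols had an FDR under 0.05. Around Tnf, Lta and Gm23442 lie lowest among the filled symbols, and Lst1 and Nfkbil1 lie near 0.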

How the data were processed

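RNA-seq was run on CD8+ T cells from 7 cultures. Per the labels and methods, the authors prepared libraries with the QuantSeq 3′ FWD kit and UMI, trimmed reads with cutadapt 2.10, mapped them to GRCm38 with STAR 2.5.3a, collapsed UMI with UMI-tools 1.0.0, and counted reads with featureCounts of Subread 2.0.0; the annotation release and strand setting are not given in the sources used here. The deposited values are whole-number counts per gene, neither normalized nor filtered, and stand for captured molecules rather than PCR copies. The counting intervals of Il17a and Il24 and the floors cover counting error only. The 95% intervals of log2 fold changes come from the edgeR fit and include the spread between libraries.

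A minimum mean of 5 counts was applied, TMM factors were computed, and edgeR 4.0.16 in R 4.3.3 ran its quasi-likelihood test (glmQLFit, then glmQLFTest), LME-sEV against HCME-sEV without covariate, and FDR was adjusted by Benjamini and Hochberg over all 12623 genes. Single values were compared by two-sided exact permutation tests over 35 assignments of the libraries. The steps were tested on simulated data. Alternatives covered 4 other minimums on counts, 3 other scalings, the tests of DESeq2 1.42.0, edgeR's likelihood ratio, and limma-voom (limma 3.58.1), the replicate number as a block, and leaving out each library. Positions and UTR came from GENCODE vM21, promoters from RefSeq, and near-identical 3′ ends, of which the 10 genes had none (at least 95% identity over 200 of the last 300 bases), from blastn 2.17.0. Analyses in Python 3.11.15 used numpy 2.4.6, pandas 2.3.3, scipy 1.17.1, and matplotlib 3.10.9.

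The 10 genes and all lists were chosen with earlier results of these data known. From each list, up to 4 genes per direction with FDR under 0.05 and a mean of at least 20 counts in the higher group were named by size of change, besides factors described beside a gene; Gbp4, Irgm1, Iigp1, Tnfsf8, and Ccl4 were named after their values were seen. Neighbors were named when they were the nearest tested gene on a side. Gm23442 was named after its value was seen, and Prrc2a because its span holds Gm23442.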

Additional observations from a re-analysis of the deposited data

Results flagged for a closer look

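For 37 values, a library standing apart within the 4 HCME-sEV libraries was looked for. They were the levels of the 10 genes and of the list genes named by size of change, and the 5 ratios of counts. Of these, 1 stood apart, where chance gives 1.85 for independent values, which the ratios and the levels of their genes are not. Stat3 in HCME-sEV library 4 held 562 CPM against a median of 511 CPM in the other libraries of the group, and the gap to its neighbor took 0.831 of the range of the group, above the 95% critical value of Dixon's test for 4 libraries. This library lies nearest to the LME-sEV libraries, and the groups did not overlap for Stat3.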

How the results depend on the processing

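Of the 10 fold changes, those of Lta, Csf2, Il17a, and Il24 kept their direction and their side of FDR 0.05 under every alternative that gave them an adjusted p (18, 18, 16, and 15 alternatives). For Il17a and Il24 this is limited, because both met the minimum mean of 5 counts only through the HCME-sEV libraries. Ifng was at −0.35 (FDR = 0.0528) when scaled by library totals only. Ltb passed at −0.43 (FDR = 0.00778) with a minimum of 1 count in total. With 1 library left out, log2 fold changes ranged from −0.53 to −0.27 for Ifng, 0.89 to 1.19 for Ifngas1, −0.54 to −0.40 for Tnf, −0.60 to −0.27 for Ltb, −0.17 to 0.41 for Il3, and 0.46 to 1.03 for Il23a. The number of the 10 genes lower then ranged from 2 to 5, the number higher from 0 to 2, and the number of higher DEG from 0 to 2. Over all genes, 223 to 761 were lower, 168 to 544 higher, 44 to 86 lower DEG, and 39 to 99 higher DEG; the lowest counts came without LME-sEV library 2. With that library left out, Lta and Il24 were the 2 of the 10 still called, and 0 were higher. Of the 10, 1 and not 2 was a lower DEG with a minimum of 5 counts in every library, with filterByExpr, and with DESeq2, because Il24 then had no adjusted p. DESeq2 called 40 higher DEG over all genes against 79; the cause was not tested.

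Replicate numbers gave no clear pairing of the libraries. Correlations of same-numbered deviations were 0.072, 0.155, and 0.027, and those of other pairs ran from −0.206 to 0.08. The highest was a same-numbered pair, but LME-sEV library 1 went better with HCME-sEV library 3, at 0.08. With so few pairs the check cannot tell whether libraries were paired. With the replicate number as a block, in which HCME-sEV library 4 has no partner, Ltb was at −0.60 (FDR = 3.72e-04), and the block changed the call of no other of the 10 genes. The median log2 fold change of all genes stayed between 0.0034 and 0.055 in every setting. At 3 counts per library, the levels of Il3, Il17a, and Il24 are limited by depth.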
